A study of Mus musculus with 18 samples.

Results

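Polycomb repressive complex 2 (PRC2) was described through the expression of 10 genes that encode its subunits: the methyltransferases Ezh1 and Ezh2, the core proteins Suz12, Eed and Rbbp4, and the accessory proteins Mtf2, Phf1, Phf19, Jarid2 and Aebp2. The rule that picks them is a list of symbols, drawn up with earlier results of these data known, and all 10 were found among the 21959 genes of a table for mouse embryonic fibroblasts (MEFs) and among the 51826 genes of a table for liver. The study deleted repeat B of Xist, the RNA that coats the inactive X chromosome in female mammals, with CRISPR/Cas9 in mice and compared homozygous deletion (RepB-/-) with wild type (WT). Poly(A) RNA was sequenced in 3 RepB-/- and 3 WT libraries of MEFs and in 3 liver libraries labelled RepB-/- and 3 labelled WT. The MEFs were labelled as a primary MEF cell line, and the same labels gave their tissue as tail. Neither the age nor the sex of the animals, nor whether the replicates came from separate animals or cultures, was given in the labels. The p-values therefore measure only the spread between these libraries, which may be technical in MEFs, whereas the livers of a genotype were not all repeats of 1 animal (Y-linked and Afp counts below). The study's methods named the ICR stock for purchased mice. The labels gave no treatment and no allele beside the deletion in either tissue.

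PRC2 places methyl groups on lysine 27 of histone H3, and the trimethylated form (H3K27me3) marks silent genes, developmental regulators and the inactive X chromosome. Ezh2 is the methyltransferase of dividing cells and is a textbook E2F target, whereas Ezh1 persists in differentiated tissue. Eed reads the mark and Suz12 holds the complex together. The accessory proteins define PRC2.1, with 1 of Mtf2, Phf1 or Phf19, and PRC2.2, with Jarid2 and Aebp2, and Jarid2 is known to bind the ubiquitin mark that Polycomb repressive complex 1 leaves on histone H2A, a mark that repeat B is known to bring to the X chromosome.

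All 10 members are autosomal. Ezh2 (ENSMUSG00000029687) lies on the minus strand of chromosome 6, at chr6:47530139-47595341 in GRCm38, and Jarid2 (ENSMUSG00000038518) on the plus strand at chr13:44729474-44921643. The RefSeq promoter windows of the members, from 250 bases before to 50 bases after a gene's start in GRCm38.p6, were searched for the E2F core words TTCCCGC and the related TTGGCGC, on both strands. A word stood in the window of 4 members, Ezh2, Suz12, Rbbp4 and Phf19, and in none of the 10 windows of Ezh1, Eed, Jarid2, Aebp2, Mtf2 and Phf1. Of all 32851 windows, 6.81% held a word, and of all 27025 genes 7.79% had a window with one. Of the 5075 windows with a GC content between the lowest and the highest of those 4 members (64.3% to 74.3%), 15.8% held a word. That range was set by the members with a word, and windows of Phf1, Aebp2 and Jarid2 within it held none. A match is a description of the letters and no proof of binding. The 4 stretches that hold a word are shown because Ezh2 is compared with the proliferation genes further on. They are written 5′ to 3′ on the gene's strand, with the word in capitals. For Ezh2 the stretch is chr6:47595001-47595280, ends 30 bases after the start and holds the word from base 5 after the start. The RefSeq start of Ezh2 differs from that of the coordinates given above, so the stretch lies inside them. For Suz12 (plus strand) it is chr11:79992856-79992934, with the word 218 bases before the start. For Rbbp4 (minus strand) it is chr4:129335371-129335425, with the word 15 bases before the start. For Phf19 (minus strand) it is chr2:34914138-34914224, with the word on the opposite strand 208 bases before the start.
Ezh2: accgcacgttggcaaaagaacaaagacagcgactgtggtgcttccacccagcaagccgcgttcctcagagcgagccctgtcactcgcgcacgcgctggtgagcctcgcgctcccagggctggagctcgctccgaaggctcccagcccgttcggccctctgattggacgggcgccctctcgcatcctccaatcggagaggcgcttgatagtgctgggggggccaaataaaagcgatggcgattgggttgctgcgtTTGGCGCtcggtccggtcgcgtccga
Suz12: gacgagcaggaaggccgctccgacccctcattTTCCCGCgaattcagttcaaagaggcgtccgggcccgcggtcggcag
Rbbp4: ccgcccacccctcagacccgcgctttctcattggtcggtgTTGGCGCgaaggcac
Phf19: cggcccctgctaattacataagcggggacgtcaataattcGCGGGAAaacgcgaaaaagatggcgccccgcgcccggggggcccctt

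The libraries were not all alike. MEF libraries held 11540344 to 20587556 counts and liver libraries 37682201 to 51542709. The shallowest, WT MEF replicate 1, stood somewhat apart in several genes below. Among livers, replicate 1 of both genotypes had 507 and 369 CPM (counts scaled by library size and TMM factor) of Afp, a fetal liver gene, against 2.79 to 6.04 CPM in the other 4, although hepatocyte markers summed to at least 114268 CPM in every liver. The liver library labelled RepB-/- replicate 2 had 4342 counts over Y-linked Uty, Kdm5d, Ddx3y and Eif2s3y and 4 counts of Xist, whereas the other 5 livers had at most 1 Y-linked count and at least 14494 counts of Xist. A homozygous deletion in Xist takes a pair of X chromosomes, so these counts go against the label of this library, which is named below by its label alone. Counts over the whole of Xist do not check the deletion of repeat B in the others. MEF libraries had at most 4 Y-linked counts, and Xist was not analysed in them. The MEFs carried fibroblast markers (20433 to 35315 CPM summed) and hardly any hepatocyte markers (at most 3.13 CPM summed).

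In MEFs few genes of PRC2 passed the test. With edgeR's quasi-likelihood test and Benjamini-Hochberg adjustment over all 13306 genes tested, 1 of the 10 members was lower in RepB-/- (Jarid2) and 0 were higher, where 39.1% of all genes passed, 19.4% higher and 19.7% lower. DESeq2 called 1 member too (31.4% of its genes passed), and 1 member had an unadjusted p under 0.05 in edgeR (47.7% of all genes did). The libraries of the genotypes did not overlap for Ezh2, which was above WT (26.4% of all genes were above), nor for Rbbp4, Phf19 and Jarid2, which were below WT (25.8% of all genes were below). The median log2 fold change (log2FC, RepB-/- minus WT) of the members was -0.06, against 0.0003 over all tested genes.

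**Figure D1:**
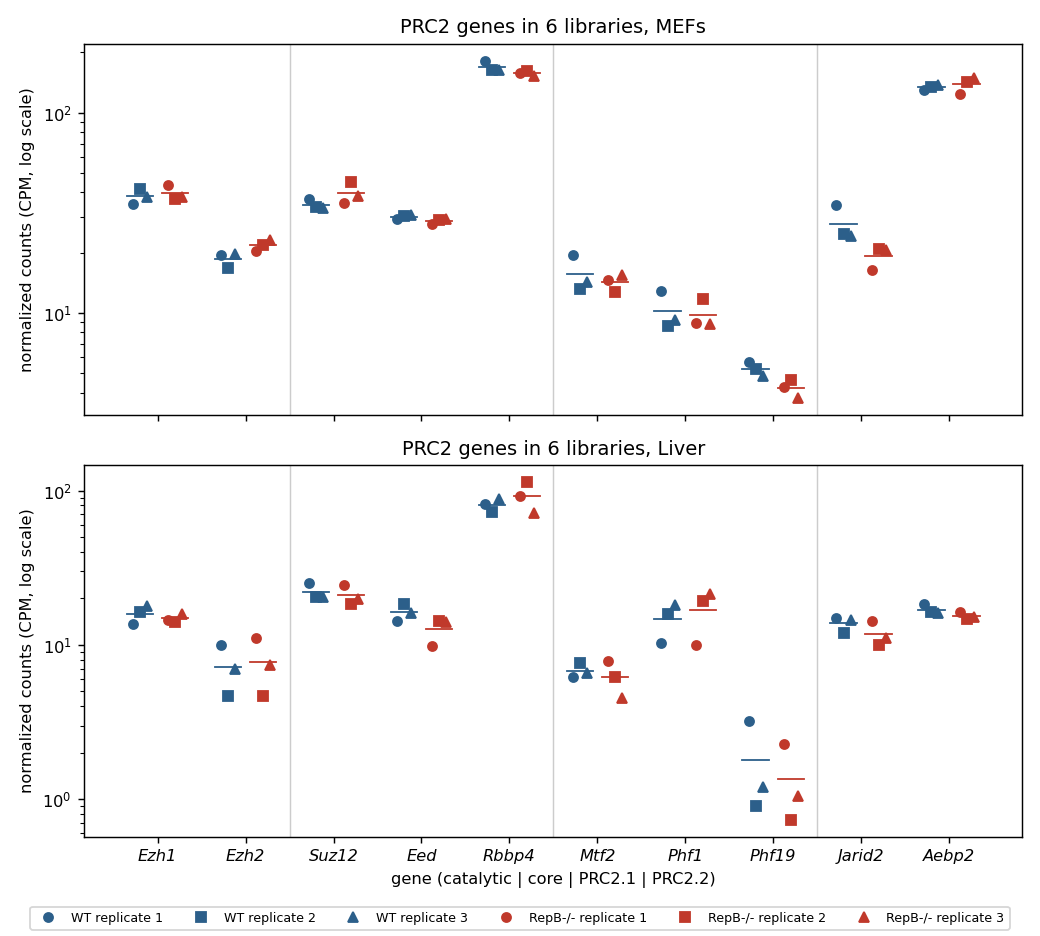
Normalized counts (CPM, log axis) of the 10 PRC2 genes in each of 6 MEF libraries (top) and 6 liver libraries (bottom), with a horizontal line at the mean of each genotype. In MEFs Jarid2 is the member with the largest difference between genotype means on the log axis, and in liver the circles of replicate 1 of both genotypes sit together, high for Ezh2 and Phf19 and low for Phf1.

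Jarid2, the PRC2.2 subunit, was the member that moved. It was at 16.5, 20.9 and 20.7 CPM in RepB-/- MEFs and at 34.5, 24.7 and 24.3 CPM in WT MEFs. All RepB-/- libraries were below all WT libraries, and WT replicate 1 was the highest by a wide margin. Jarid2 fell by 0.52 on the log2 scale (SE 0.14, edgeR adjusted p = 0.0104). Without RepB-/- replicate 1 the log2FC was -0.41 and the adjusted p 0.0575, so the call was lost, and without WT replicate 1 the log2FC was -0.34 with an adjusted p of 0.0222. Over all 12 alternatives the adjusted p ran from 0.000351 to 0.0575. Aebp2, the other PRC2.2 subunit among the members, was at 123, 143 and 149 CPM in RepB-/- and at 130, 134 and 138 CPM in WT. These values overlapped, with a log2FC of 0.05 (95% interval -0.12 to 0.21).

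The methyltransferases had no call in MEFs. Ezh2 was at 20.5, 21.9 and 23.1 CPM in RepB-/- and at 19.5, 16.7 and 19.8 CPM in WT. Its RepB-/- libraries were all above WT, yet the closest pair differed by less than the spread within either genotype. The log2FC was 0.23 (SE 0.11, edgeR adjusted p = 0.106, 95% interval -0.00094 to 0.46). Ezh1 was at 43.8, 37.1 and 38.0 CPM in RepB-/- and at 35.0, 41.6 and 38.0 CPM in WT. Its genotypes overlapped, and the log2FC was 0.05 (adjusted p = 0.702). Ezh1 gave more counts than Ezh2 in all 12 libraries of both tissues, but counts do not allow for gene length. In TPM, which do, Ezh2 was above Ezh1 in replicate 1 of both liver genotypes. The values were 10.5 against 6.67 TPM in RepB-/- and 13.3 against 7.48 TPM in WT, and Ezh2 was below Ezh1 in the other livers.

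Of the core proteins, none passed the test in MEFs. Suz12 was at 35.5, 44.9 and 38.4 CPM in RepB-/- and at 37.0, 33.6 and 33.4 CPM in WT, with a log2FC of 0.19 (SE 0.099, edgeR adjusted p = 0.138). Eed was the steadiest member, at 27.9, 29.0 and 29.5 CPM in RepB-/- and 29.4, 30.4 and 30.7 CPM in WT (log2FC -0.07, adjusted p = 0.555). Rbbp4, a histone chaperone shared with other chromatin complexes, was at 157, 161 and 153 CPM in RepB-/- and at 182, 164 and 164 CPM in WT. Its groups did not overlap, but the log2FC of -0.11 (SE 0.069) had an adjusted p of 0.221. When libraries were scaled by total counts alone, which moved the median of all tested genes to -0.11, Rbbp4 was at -0.23 with an adjusted p of 0.0293, and the share of calls that were higher fell from 49.6% to 31.2%.

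The PRC2.1 proteins, which bring the complex to CpG islands, did not pass the test in MEFs either. Phf19 was the lowest member throughout, at 4.28, 4.65 and 3.75 CPM in RepB-/- and at 5.69, 5.26 and 4.87 CPM in WT, on 71 to 90 counts per library. All its RepB-/- values were below WT (log2FC -0.31, SE 0.19, edgeR adjusted p = 0.214). Mtf2 was at 14.7, 12.7 and 15.6 CPM in RepB-/- and at 19.5, 13.2 and 14.3 CPM in WT (log2FC -0.12, adjusted p = 0.56). Phf1 was at 8.87, 11.8 and 8.77 CPM in RepB-/- and at 12.8, 8.66 and 9.27 CPM in WT (log2FC -0.05, adjusted p = 0.832). For both genes WT replicate 1 was the highest WT library and the genotypes overlapped.

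Proteins that join PRC2 in some cells were listed apart from the members. Of 5 such genes in MEFs, 4 were tested, 1 was higher and 2 were lower (19.4% and 19.7% of all genes were). Rbbp7, the close relative of Rbbp4 that can take its place and lies on the X chromosome, was at 186, 179 and 192 CPM in RepB-/- and at 140, 137 and 142 CPM in WT. The genotypes were far apart relative to their spread, and Rbbp7 rose by 0.41 on the log2 scale (SE 0.066, edgeR adjusted p = 0.00034). The number of Rbbp7 counts over that of Rbbp4, a pair chosen after its values were seen, was 1.18, 1.11 and 1.25 in RepB-/- and 0.769, 0.838 and 0.869 in WT. This ratio does not depend on library size, and its genotypes did not overlap. The 2 genes encode near-identical proteins, and how reads that fit both were assigned is not given in the sources used here.

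Epop, which links PRC2.1 to elongin, was at 3.36, 4.96 and 4.10 CPM in RepB-/- MEFs and at 19.7, 10.6 and 9.44 CPM in WT. It fell by 1.66 on the log2 scale (SE 0.26, edgeR adjusted p = 0.000268). Lcor, whose locus also makes the PRC2.1 protein PALI1, was at 12.5, 12.7 and 13.9 CPM in RepB-/- and at 21.1, 17.5 and 17.8 CPM in WT, and it fell by 0.52 (adjusted p = 0.0032). Its relative Lcorl had the opposite sign and did not pass, at 5.20, 4.96 and 4.92 CPM in RepB-/- and 4.17, 2.97 and 3.80 CPM in WT (log2FC 0.47, adjusted p = 0.0869). Ezhip, an inhibitor of PRC2, had 0 counts in all 6 MEF libraries.

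**Figure D2:**
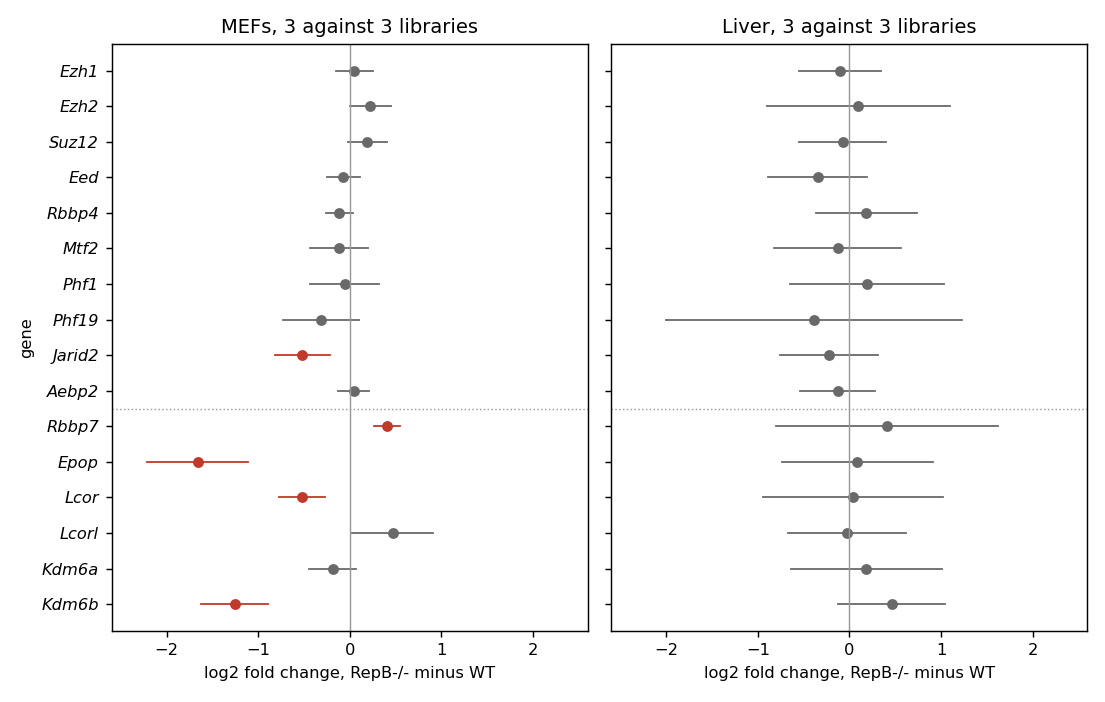
Log2 fold change (RepB-/- minus WT, 3 against 3 libraries) with its 95% interval for the 10 members (above the dotted line) and for 4 further subunits and 2 H3K27 demethylases (below it), in MEFs (left) and liver (right). Red marks an adjusted p under 0.05 in edgeR. Jarid2, Rbbp7, Epop, Lcor and Kdm6b are red in MEFs, and no gene is red in liver, where the intervals are wider.

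The enzymes that act against PRC2 were set beside it. Kdm6b, a demethylase of H3K27me3, was at 40.6, 42.0 and 31.3 CPM in RepB-/- MEFs and at 124, 72.6 and 76.9 CPM in WT. Every RepB-/- library was below every WT library, and Kdm6b fell by 1.26 on the log2 scale (SE 0.17, edgeR adjusted p = 0.000101). Kdm6a, the demethylase on the X chromosome, was at 30.8, 29.1 and 31.2 CPM in RepB-/- and at 40.7, 28.0 and 35.3 CPM in WT. Its genotypes overlapped (log2FC -0.19, adjusted p = 0.225), although without WT replicate 2 it was at -0.32 with an adjusted p of 0.0233. Of 5 methyltransferases of H3K36, a mark that hinders PRC2, 1 was higher in RepB-/- and 4 did not pass, a share close to the 19.4% of all genes that were higher. Ash1l rose by 0.30 (adjusted p = 0.0048), Setd2 had a log2FC of 0.18, Nsd3 of -0.14 and Nsd1 of 0.04. Scaled by total counts alone, Ash1l was at 0.19 and no longer passed. Without WT replicate 1 Setd2 passed, at 0.24 (adjusted p = 0.0224).

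Of a list of 18 textbook PRC2 targets, developmental regulators and the cell cycle inhibitors Cdkn2a and Cdkn2b, 9 passed the filter on low counts in MEFs. Eomes and Gata4 passed through the WT libraries alone, so their direction was set by the filter and their values are a description. Of all 13306 tested genes, 2621 (19.7%) were lower in RepB-/- and 2581 (19.4%) higher. Of the 12151 among them whose libraries met the filter's level in both genotypes, 2076 were lower and 2526 higher. The other 7 targets were among these genes, with 4 lower, 1 higher and a median log2FC of -0.41. Those lower were Gata6, Pax3, Tbx3 and Foxf1, and the one higher was Cdkn2b (Tbx3, Foxf1 and Cdkn2b are named after their values were seen). The genes with the largest differences were Eomes, Gata4, Gata6 and Pax3, transcription factors of mesoderm, endoderm and neural crest. Eomes had 1, 1 and 2 counts in RepB-/- and 21, 28 and 10 counts in WT. The ratio of its summed counts, scaled to library size, was 0.0525 (95% exact interval 0.0139 to 0.142, counting error only). Gata4 had 3, 2 and 11 counts in RepB-/- against 28, 34 and 29 in WT. Both are near the floor in RepB-/-, where a value of 3 counts or fewer sets no firm level. Gata6 was at 0.866, 0.878 and 0.760 CPM in RepB-/- and at 4.73, 3.77 and 3.09 CPM in WT, and it fell by 2.19 on the log2 scale (edgeR adjusted p = 0.00012). Pax3 was at 1.02, 1.03 and 1.27 CPM in RepB-/- and at 4.17, 3.09 and 2.73 CPM in WT, and it fell by 1.57 (edgeR adjusted p = 0.00117).

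Markers of other cells were compared between the MEF genotypes as well, where 19.4% of all tested genes were higher in RepB-/- and 19.7% lower. The lists are short, so their counts of calls are a description. Endothelial markers (Pecam1, Cdh5, Kdr and Tek, 1 higher and 3 lower) summed to 19.8 to 21.5 CPM in RepB-/- and 28.8 to 36.2 CPM in WT. Keratinocyte markers, 4 of 5 tested and 1 higher, summed to 5.12 to 11.5 CPM in RepB-/- and 3.13 to 4.76 CPM in WT. Macrophage markers, 4 of 5 tested with 2 higher and 1 lower, summed to 26.4 to 30.9 CPM in RepB-/- and 21.6 to 29.7 CPM in WT. Of these Adgre1, which was higher, did not meet the filter's level in both genotypes, so its call is a description. Among the 3 that did, 1 was higher and 1 lower. Fibroblast markers (5 of 10 higher, 1 lower) summed to 29334 to 35315 CPM in RepB-/- and 20433 to 25280 CPM in WT. Fetal liver markers, 4 of 8 tested with 1 higher and 2 lower, summed to 22.1 to 27.5 CPM in RepB-/- and 28.9 to 47.4 CPM in WT. Hepatocyte markers, none of them tested, summed to 0.362 to 0.459 CPM in RepB-/- and 1.30 to 3.13 CPM in WT, and erythroid markers to 0.517 to 1.17 CPM and 1.67 to 3.29 CPM, where the 1 tested, Epor, passed the filter through WT alone. Muscle markers, 3 of 4 tested and 0 called, overlapped between genotypes. The part of these cells in the MEF results above was not tested, and in bulk RNA fewer cells of a type and less RNA per cell cannot be told apart.

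Ezh2 was then related to proliferation, through 28 genes of DNA replication and mitosis. In MEFs 24 of the 28 were higher in RepB-/- and 0 were lower (median log2FC 0.54, against 19.4% of all genes higher). The 4 with the largest differences were the cyclin Ccne2 (log2FC 1.22), the cycling-cell marker Mki67 (1.09), the topoisomerase Top2a (1.01) and the replication-linked chromatin factor Uhrf1 (0.82). Mki67 was at 42.6, 44.3 and 42.4 CPM in RepB-/- and at 14.9, 19.5 and 25.7 CPM in WT. The log2FC of 24 of the 28 genes was above the 0.23 of Ezh2. Per library, Ezh2 stood below the mean of these genes on the log2 CPM scale by -0.85, -0.77 and -0.66 in RepB-/- and by -0.37, -0.60 and -0.44 in WT. The 2 sets of values did not overlap, and the difference was -0.29 (two-sided exact permutation p = 0.1, the smallest that 3 against 3 libraries can give). The mean of the proliferation genes was 0.52 higher in RepB-/- MEFs, whereas Ezh2 was 0.23 higher. These are mRNA levels and do not measure how fast the cells divide. In a cell proliferation assay the study found slower growth of RepB-/- MEFs, and its own RNA data showed raised expression of cell cycle genes.

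**Figure D3:**
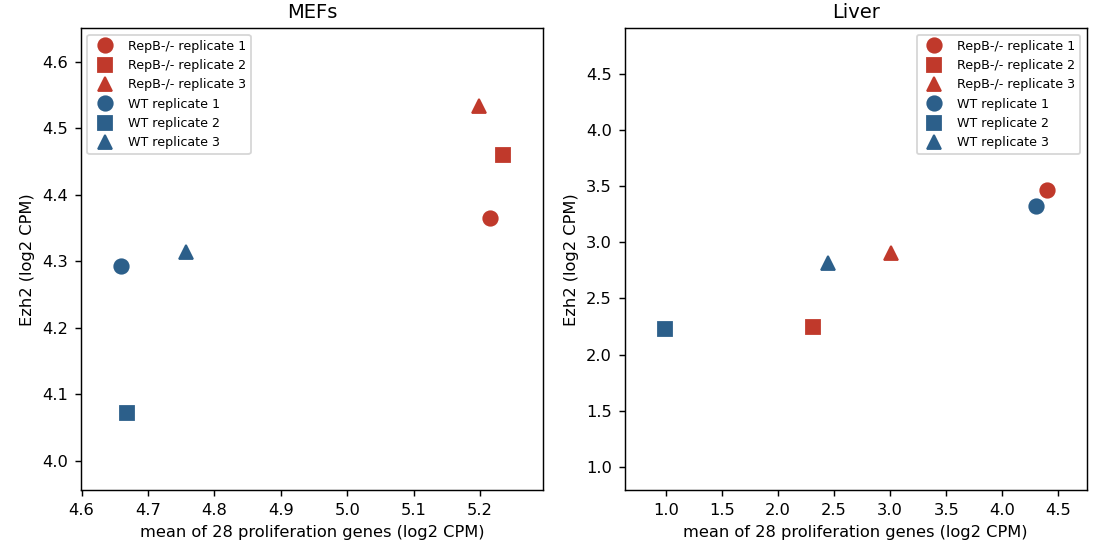
Ezh2 (y axis, log2 CPM) against the mean of 28 proliferation genes (x axis, log2 CPM) in each library of MEFs (left) and liver (right), with both axes of a panel spanning the same range. In MEFs the genotypes separate along the x axis by 0.52, and in liver the 6 libraries follow the same order on both axes while Ezh2 spans 1.23 and the proliferation mean 3.40.

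In liver 0 of the 10 members passed the test in either direction, by edgeR or by DESeq2, and 0 had an unadjusted p under 0.05. Among all genes 0.0373% passed in edgeR (6 of 16080, 0.00622% higher and 0.0311% lower) and 0.425% in DESeq2 (80 of 18811), and 3.12% had an unadjusted p under 0.05 in edgeR. The biological coefficient of variation, the spread of replicates beyond counting error, was 51.2% in liver and 9.06% in MEFs. The lowest unadjusted p of a member in edgeR was 0.169, for Eed. Eed was at 9.87, 14.2 and 14.1 CPM in RepB-/- and at 14.3, 18.3 and 16.0 CPM in WT. It was the only member whose genotypes did not overlap (4.66% of all genes were below WT), with a log2FC of -0.35 and a 95% interval of -0.88 to 0.19.

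Jarid2, lower in RepB-/- MEFs, was at 14.4, 9.97 and 11.0 CPM in RepB-/- livers and at 14.9, 11.9 and 14.6 CPM in WT livers. The genotypes overlapped, with a log2FC of -0.23 (95% interval -0.76 to 0.31). Rbbp4 was at 91.8, 113 and 71.3 CPM in RepB-/- and at 82.0, 72.1 and 88.6 CPM in WT, Mtf2 at 7.90, 6.22 and 4.52 CPM against 6.20, 7.59 and 6.61 CPM, and Ezh1 at 14.6, 14.1 and 15.8 CPM against 13.6, 16.2 and 17.9 CPM. None of the 3 separated the genotypes.

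In liver, replicate 1 of both genotypes lay above the other livers for Ezh2, Phf19, Suz12 and, by little, Aebp2, and below them for Phf1. Such patterns were common among all tested genes, with 23.0% above and 21.3% below. Ezh2 was at 11.0 and 9.97 CPM in replicate 1 of RepB-/- and WT, at 4.69 and 4.65 CPM in replicate 2 and at 7.44 and 6.99 CPM in replicate 3. On this scale the genotypes lay close together within each number, and the log2FC was 0.10 (95% interval -0.90 to 1.10). In the authors' TPM values, which carry no TMM factor, Ezh2 was lower in RepB-/- than in WT in each number. It was at 10.5 against 13.3, at 3.95 against 4.24 and at 4.22 against 6.31 TPM. Phf19 was at 2.29 and 3.23 CPM in replicate 1 and at 0.735 to 1.20 CPM in the other 4 livers. Suz12 was at 24.5 and 25.2 CPM in replicate 1 and at 18.3 to 20.4 CPM in the others. Phf1 went the other way, at 9.97 and 10.3 CPM in replicate 1 and at 15.7 to 21.3 CPM in the others. Aebp2 was at 16.4 and 18.3 CPM in replicate 1 and at 14.7 to 16.3 CPM in the others. In all, both replicate 1 livers were above the other 4 for 4 of the 10 members (23.0% of all tested genes were) and below them for 1 (21.3% of all genes were). The same held, upward, for 24 of the 28 proliferation genes, for all 5 tested fetal liver markers (Afp among them), for 8 of 10 fibroblast markers and for 4 of 4 endothelial markers. It held for 2 of 5 macrophage and 2 of 9 erythroid markers, and for the 1 tested marker each of keratinocytes and muscle. Of 10 hepatocyte markers 1 was above the other 4 livers and 3 were below them. Without both replicate 1 livers 0 members passed the test, as did 2 of 16019 genes in all, and without the library labelled RepB-/- replicate 2 0 members passed and Ezh2 was at 0.35. Erythroid markers, 9 of 10 tested, summed to 1395 to 4516 CPM in RepB-/- and 261 to 1628 CPM in WT livers. None was called without the replicate block and 2 had an unadjusted p under 0.05. With the block 1 was higher (0.0187% of all genes were), the red cell anion exchanger Slc4a1, which was below the level of the filter in WT replicates 2 and 3, at 57.5, 1.47 and 2.22 CPM in RepB-/- and 2.74, 0.052 and 0.084 CPM in WT. Of the members 0 had an unadjusted p under 0.05 with the block. The part of these cells, or of age, in the liver values was not tested.

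Ezh2 made up 43.0% and 42.2% of the counts of Ezh1 and Ezh2 together in the replicate 1 livers of RepB-/- and WT (95% exact intervals 40.3% to 45.8% and 39.3% to 45.3%, counting error only). In the other 4 livers it made up 22.3% to 32.0%. In MEFs the share was 31.9%, 37.1% and 37.8% in RepB-/- and 35.8%, 28.6% and 34.2% in WT. The MEF genotypes overlapped, and the log2 ratio of Ezh2 to Ezh1 was 0.18 higher in RepB-/-, less than its SD of 0.21 in RepB-/- and 0.25 in WT.

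**Figure D4:**
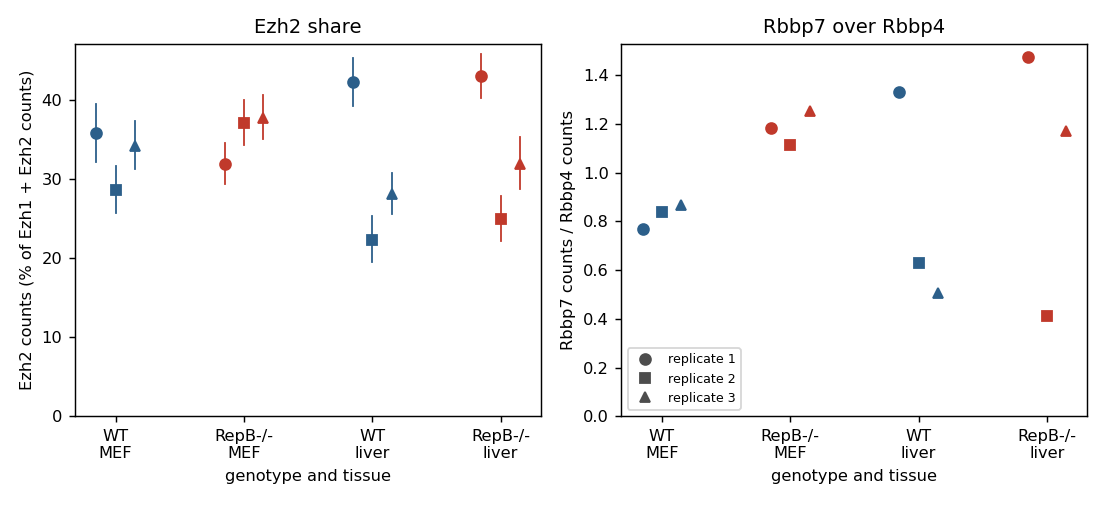
Left, Ezh2 counts as a percentage of Ezh1 plus Ezh2 counts in each library, with 95% exact binomial intervals. Right, Rbbp7 counts divided by Rbbp4 counts in each library. Symbols give the replicate number and both axes start at 0. The Ezh2 share is highest in replicate 1 of both liver genotypes, and the Rbbp7 to Rbbp4 ratio separates the genotypes in MEFs and not in liver.

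Proliferation genes in liver followed the same replicates. None of the 28 passed the test, by edgeR with or without the replicate block. At an unadjusted p under 0.05 there were 0 without the block and 7 with it, all higher in RepB-/- (3.99% of all genes were), and the median log2FC was 0.32 without and 0.63 with the block. On the log2 CPM scale their mean was 4.39 and 4.30 in replicate 1 of RepB-/- and WT, 2.32 and 0.99 in replicate 2, and 3.0 and 2.44 in replicate 3. Within each number the mean was thus higher in RepB-/-, as was Mki67, at 5.76 and 4.93, 3.19 and 2.02, and 4.83 and 3.93 log2 CPM. Replicates 2 and 3 correlated as well across numbers, so their pairing by number, on which the block also rests, is not settled. Across numbers, the library labelled RepB-/- replicate 2, which had Y-linked counts, was below WT replicate 3. The means were 2.32 against 2.44, and Mki67 was at 3.19 against 3.93 log2 CPM. On the log2 CPM scale the 6 livers stood in the same order by Ezh2 and by the proliferation mean, although Ezh2 spanned 1.23 and the mean 3.40 log2 units. Within a number Ezh2 differed by little, as in replicate 2 of RepB-/- and WT (2.24 and 2.23 log2 CPM). In TPM the order of Ezh2 within each number was the reverse. The shared order thus rests mainly on the differences between replicate numbers. In MEFs 1 of 6 libraries had the same rank by Ezh2 and by the mean. Ezh2 minus the proliferation mean differed by -0.58 between the liver genotypes (two-sided exact permutation p = 0.5). The libraries fell into separate clusters, so no correlation is given. The proliferation genes with the largest log2FC in liver were E2f2 (1.46), Plk1 (1.05), Ccnb1 (0.96) and Mki67 (0.89), and each overlapped between genotypes.

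The genes whose profile over the 6 libraries was most like that of Ezh2 were taken as those with the smallest root mean square difference after centring on the log2 CPM scale. In MEFs they were Mterf3, Ube2q2, Wdr44, Olfm1 and Racgap1 out of 11524 genes ranked. Their differences ran from 0.028 to 0.035, where Ezh2 itself deviated by 0.15 from its mean. In liver they were Dck, Ldb2, Nfya, Tifab and Gys1 out of 11736. Their differences ran from 0.092 to 0.13, where Ezh2 deviated by 0.48. Ezh2 rested on 243 to 455 counts per MEF library and on 180 to 557 per liver library. How close genes would come by counting error alone was not tested. The names are therefore a description and show no shared regulation with Ezh2. Among the nearest 5% of genes were 3 of 28 proliferation genes in MEFs and 0 of 27 in liver. Suz12 ranked 1080 in MEFs, the nearest of the members.

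The further genes showed no call in liver. Rbbp7 was at 135, 46.3 and 83.4 CPM in RepB-/- and at 109, 45.4 and 45.0 CPM in WT livers. Its ratio to Rbbp4 was 1.47, 0.410 and 1.17 in RepB-/- and 1.33, 0.629 and 0.508 in WT, lowest in the library labelled RepB-/- that had Y-linked counts. Without that library the log2FC of Rbbp7 was 0.72 in place of 0.41, and that of Kdm6a 0.48 in place of 0.19, with neither passing. Epop had a log2FC of 0.09, Lcor of 0.04 and Lcorl of -0.03, and all overlapped between genotypes. Kdm6b was at 29.5, 30.9 and 48.6 CPM in RepB-/- and at 28.9, 24.0 and 26.3 CPM in WT. Here the RepB-/- libraries were above WT (3.38% of all genes were), without passing the test (log2FC 0.46, SE 0.24). Of the PRC2 targets 5 of 18 were tested, 0 passed, and the largest log2FC values were -0.52 for Foxf1, -0.52 for Tbx3, -0.35 for Eomes and -0.21 for Gata6. Of 5 H3K36 methyltransferases 0 passed, and the largest log2FC values were 0.09 for Nsd2 and -0.06 for Ash1l.

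The genotype effects were compared between tissues by the interaction term of a fit of all 12 libraries. Of 15208 genes tested, 0.388% differed, and 0 of the 10 members did in edgeR, in limma's voom fit or at an unadjusted p under 0.05. The difference of the Jarid2 effects, liver minus MEF, was 0.30 (SE 0.26, edgeR adjusted p = 0.681). Its effect passed in MEFs and not in liver, but the effects were not shown to differ.

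Levels were compared between members per length of the gene, within a tissue. In WT MEFs, in FPKM (fragments scaled by gene length and library size), Rbbp4 was the highest at 20.2 ± 1.95 (SD, n = 3), followed by Aebp2 at 14.1 ± 0.41. Eed (8.19 ± 0.16) and Suz12 (7.30 ± 0.69) overlapped, and Ezh1 was at 5.32 ± 0.28. Phf1 (3.07 ± 0.79), Jarid2 (2.99 ± 0.73), Ezh2 (2.91 ± 0.34) and Mtf2 (2.87 ± 0.73) were not distinct from their neighbours, and Phf19 was the lowest at 1.09 ± 0.12. In RepB-/- MEFs Jarid2 moved down to the ninth place, at 1.92 ± 0.25 FPKM, and no longer overlapped its neighbours.

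In WT liver, in TPM (a share of transcripts that also allows for length), Rbbp4 was again the highest at 33.5 ± 5.06 (SD, n = 3) and Eed was next at 24.5 ± 2.03. Phf1 (10.7 ± 2.07), Suz12 (9.37 ± 2.09), Aebp2 (8.47 ± 0.66), Ezh2 (7.95 ± 4.75) and Ezh1 (7.55 ± 0.24) each overlapped the next. Ezh2 had by far the widest spread of these, from 4.24 to 13.3 TPM. Mtf2 (4.67 ± 0.59) and Jarid2 (4.58 ± 1.26) overlapped, and Phf19 was the lowest at 1.04 ± 0.98. The 2 tissues were tabulated in different units, so levels are not compared between them.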

How the data were processed

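Poly(A) RNA of 6 MEF and 6 liver libraries was analysed, and 6 libraries of brain were left out. The authors deposited raw counts of reads on each gene together with FPKM values for MEFs and TPM values for liver, and 6 further columns of FPKM for liver were not used. Columns of the authors' own comparisons, which hold fold changes and p-values, were not used either. Per the study's methods, reads of stranded libraries passed through Cutadapt and Hisat2, whereas the submitters' processing notes list Trim Galore 0.4.1, STAR 2.7.0, HTSeq 0.12.4 and DESeq2 with no role. The counting tool is not given in the sources used here. Coordinates of the MEF table are in GRCm39 and those of the liver table in GRCm38.

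Letters B and W of the library labels were read as RepB-/- and WT. Counts of each tissue were fitted alone with edgeR 4.0.16 (R 4.3.3), with TMM scaling, filterByExpr, a quasi-likelihood test and an adjusted p of 0.05 over all genes of the table. Alternatives were DESeq2 1.42.0, other scalings, no filter, the replicate number as a block, a term for liver replicate 1 and leaving out each library. Scaling by total counts alone and leaving out both replicate 1 livers were chosen after seeing the data. The interaction was also fitted with limma 3.58.1. CPM on the log2 scale had a prior count of 2. On counts simulated at the spread of each tissue, the edgeR fit recovered most doublings and halvings in MEFs, with a share of false calls above the threshold, and none in liver, so the lack of calls in liver shows little about changes of that size. Same-numbered liver libraries deviated together (r = 0.71, 0.36 and 0.37 across genes, after removal of genotype means), so the numbers were taken to pair them. Replicates 2 and 3 correlated as well across numbers (0.41 and 0.40), so the pairing of these by number is not settled.

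The members and the gene lists were chosen with earlier results of these data known. Named were all members, further PRC2 subunits, H3K27 demethylases, the 4 genes of each further list with the largest log2 fold change (2 for H3K36 methyltransferases in liver), and the 5 genes most like Ezh2 with a mean log2 CPM of at least 1. Promoters were those of RefSeq (GRCm38.p6), found for all 10 members. Figures were drawn with Python 3.11.15 and matplotlib 3.10.9.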

Additional observations from a re-analysis of the deposited data

How the results depend on the processing

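In MEFs the number of members lower in RepB-/- was 1 under DESeq2, DESeq2 size factors, TMM over autosomal genes, no filter and the replicate block, 2 when libraries were scaled by total counts alone (Jarid2 and Rbbp4), and 0 to 1 on leaving out each library. It was 0 without RepB-/- replicate 1. No alternative gave a member that was higher, or any member called in liver or in the interaction. Proliferation genes higher in MEFs numbered 18 by total counts alone and 20 to 23 on leaving out each library. Ezh2 minus the proliferation mean ran from -0.36 to -0.24 in MEFs and from -1.17 to -0.066 in liver, and the log2 ratio of Ezh2 to Ezh1 from 0.034 to 0.29 in MEFs and from -0.14 to 0.55 in liver. These ranges rest on few libraries, and the liver spread leaves wide intervals.

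Same-numbered MEF libraries did not deviate together (r = -0.011, -0.042 and -0.0035). With the replicate block 37.6% of MEF genes and 0.0498% of liver genes passed, and Jarid2 was at -0.51 with an adjusted p of 0.0136. The block changed no call of a named gene in either tissue other than Slc4a1 in liver. Ezh2 minus the proliferation mean had an exact permutation p of 0.25 in MEFs and 0.5 in liver within replicate numbers, where 0.25 is the smallest possible.

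Genes without a call changed sign under some settings, and the cause was not tested. On leaving out a library in MEFs, log2 fold changes ran from -0.020 to 0.12 for Ezh1, -0.20 to 0.13 for Phf1, -0.0046 to 0.13 for Aebp2 and -0.23 to 0.062 for Mtf2. In liver they ran from -0.25 to 0.41 for Ezh2, -0.20 to 0.038 for Suz12, -0.34 to 0.060 for Mtf2, -0.0054 to 0.46 for Phf1, -0.995 to 0.37 for Phf19, -0.033 to 0.97 for Rbbp7, -0.11 to 0.29 for Epop, -0.18 to 0.36 for Lcor, -0.22 to 0.13 for Lcorl, -0.16 to 0.48 for Kdm6a, -1.08 to 0.23 for Eomes, -0.080 to 0.36 for Nsd2 and -0.25 to 0.034 for Ash1l. By total counts alone they were -0.059 for Ezh1, -0.067 for Aebp2 and -0.072 for Nsd1 in MEFs, and -0.078 for Ezh2, -0.055 for Epop, -0.11 for Lcor, -0.023 for Kdm6a and -0.081 for Nsd2 in liver, where that scaling moved the median of all genes to -0.15. Without both replicate 1 livers Lcorl was at 0.067.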
